A study of Mus musculus with 4 samples.

Results

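The MHC class I presentation pathway of mouse liver leukocytes was followed through 10 genes, matched by symbol among the 27998 genes of the deposited matrices. They were 6 heavy chains (H2-K1, H2-D1, H2-M2, H2-M3, H2-T23 and H2-Q7), the light chain B2m, both subunits of the peptide transporter (Tap1 and Tap2) and the loading chaperone tapasin (Tapbp). The cells were CD45+ CD146- non-parenchymal cells of C57BL/6J livers, sorted by flow cytometry and sequenced as 10x single-cell libraries. Of the 4 libraries, 2 came from mice fed a control diet and 2 from mice fed the AMLN diet (labelled nash-amln), a dietary model of non-alcoholic steatohepatitis (NASH). Flavopiridol, a transcription inhibitor, was present while all livers were perfused and digested with Liberase. The labels do not say whether the libraries came from separate mice, so a p-value here speaks only of the spread among the 4 libraries, which may be technical.

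MHC class I molecules display short peptides from inside the cell to CD8 T cells and are read by receptors of NK cells. Proteasomes cut the peptides, the TAP transporter carries them into the endoplasmic reticulum, and tapasin holds an empty heavy chain with its β2-microglobulin until a peptide binds. H2-K1 and H2-D1 encode the classical heavy chains of this strain. The nonclassical ones are more specialised: H2-M3 presents N-formylated peptides, H2-T23 encodes Qa-1 (a ligand of the CD94/NKG2A receptor of NK cells), and H2-Q7 encodes Qa-2. H2-M2 is a less studied heavy chain gene of the same region.

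In GENCODE vM21 on mm10, the build of the matrices, 9 members lie on chromosome 17 and B2m on chromosome 2. The heavy chain genes are H2-K1 (chr17:33996017-34000347, minus strand), H2-D1 (chr17:35262730-35267499, plus strand), H2-Q7 (chr17:35439155-35443773, plus strand), H2-T23 (chr17:36029773-36032855, minus strand), H2-M3 (chr17:37270220-37274484, plus strand) and H2-M2 (chr17:37480851-37483552, minus strand). B2m lies at chr2:122147686-122153083, Tap1 at chr17:34187553-34197225, Tap2 at chr17:34203527-34216321 and Tapbp at chr17:33915899-33929292, all on the plus strand. Exons of Tap1 overlap Psmb9 on the other strand, those of Tap2 overlap Gm20496 and Gm15821 on the other strand, and those of Tapbp overlap Zbtb22 on its own strand and Gm19412 on the other. The strand used in counting is not given in the sources used here, so reads of these 3 members and of their overlapping genes cannot be told apart. Of the 90-base words in the last 500 bases of H2-T23, 13.4% also occur in H2-T-ps, Hook2 or Rab33b, which makes its count less certain. None of the words of the other 9 members was shared.

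The sequences upstream of H2-K1, H2-Q7, B2m and H2-M2 are shown because the results turn on these 4 genes: H2-K1 fell, B2m and H2-M2 rose, and H2-Q7 varied widely between cell classes. Each is the 250 bases before the RefSeq start on GRCm38.p6, read 5′ to 3′ on the gene's strand. The regions are chr17:34000348-34000597 (minus strand) for H2-K1, chr17:35438905-35439154 (plus strand) for H2-Q7, chr2:122147437-122147686 (plus strand) for B2m and chr17:37483555-37483804 (minus strand) for H2-M2. Capitals mark matches, on either strand, to 4 motifs known from class I promoters. They are the NF-kB consensus, the CRE motif of the X2 box (TGACG), the CCAAT box and a form of the interferon response element. That form is GAANNGAAA, bound by IRF factors and called the IRF element below.
H2-K1: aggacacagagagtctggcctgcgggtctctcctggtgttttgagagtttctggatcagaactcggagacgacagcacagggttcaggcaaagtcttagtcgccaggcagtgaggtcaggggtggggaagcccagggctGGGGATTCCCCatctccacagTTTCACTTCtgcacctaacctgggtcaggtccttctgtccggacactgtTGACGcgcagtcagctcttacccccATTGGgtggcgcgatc
H2-Q7: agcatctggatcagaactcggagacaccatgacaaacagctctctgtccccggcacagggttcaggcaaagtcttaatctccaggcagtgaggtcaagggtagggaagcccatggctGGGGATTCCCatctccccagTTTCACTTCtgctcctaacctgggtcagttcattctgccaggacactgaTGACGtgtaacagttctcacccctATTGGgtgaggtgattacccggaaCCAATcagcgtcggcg
B2m: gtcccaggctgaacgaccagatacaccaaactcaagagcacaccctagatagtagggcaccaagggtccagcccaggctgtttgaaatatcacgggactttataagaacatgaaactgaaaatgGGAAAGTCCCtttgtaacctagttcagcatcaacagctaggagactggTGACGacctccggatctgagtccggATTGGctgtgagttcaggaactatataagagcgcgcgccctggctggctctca
H2-M2: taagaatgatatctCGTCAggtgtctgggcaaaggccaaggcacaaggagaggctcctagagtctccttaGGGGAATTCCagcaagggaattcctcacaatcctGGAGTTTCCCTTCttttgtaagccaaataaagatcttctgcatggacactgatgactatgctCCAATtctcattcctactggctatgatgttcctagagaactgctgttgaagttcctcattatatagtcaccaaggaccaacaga
Of 27025 RefSeq promoter windows of this length, 6.34% held the IRF element, 7.01% the NF-kB consensus, 17.9% the CRE motif and 34.5% the CCAAT box. Among the 9 members with a window, the IRF element occurred in 5 (H2-K1, H2-D1, H2-M2, H2-M3 and H2-Q7), the NF-kB consensus in 6, the CRE motif in 7 and the CCAAT box in all 9. The CRE motif lay 41 to 37 bases before the start of H2-K1 and 236 to 232 bases before that of H2-M2. The IRF element lay 90 to 82 bases before the start of H2-K1, 113 to 105 before that of H2-Q7 and 142 to 134 before that of H2-M2. B2m had no match to this form. Its sequence does hold gaaactgaaa, the same letters with a wider gap, a form that was not searched. The matches overlap in places: the NF-kB consensus matched at neighbouring bases in H2-K1, and the IRF and NF-kB matches of H2-M2 share bases. A match is a description of the letters only.

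The 4 matrices held 1550 and 1805 barcodes for the control libraries and 1639 and 1933 for the NASH libraries, of which 1307, 1420, 1572 and 1859 were kept. The median number of unique molecular identifiers (UMIs, 1 per captured transcript) per kept cell was 3381 and 3049.5 in control and 7584.5 and 7417 in NASH. Any pair of libraries shared between 2 and 8 cell barcodes. The 26 clusters were built without class I genes and named from marker genes, so each name means "like". Macrophage-like cells numbered 969, 870, 725 and 1024 (control 1, control 2, NASH 1, NASH 2), and none of their 22 measured markers was at 0 in any library. The control libraries stood apart from each other: of the control 1 macrophage-like cells 840 lay in a cluster led by Fkbp5, Lepr and Cd163, and of the control 2 cells 709 lay in one led by Marco, Cxcl13 and Hmox1. NASH macrophage-like cells filled 3 other clusters, led by Folr2 and Apoc1 (145 and 346 cells), by Mmp12 and Gpnmb (288 and 288) and by Cx3cr1 and Ms4a7 (291 and 387). Summed markers of other sources also moved in the macrophage-like cells: 6 erythroid genes came to 97.4, 4485, 77.7 and 75.0 CPM (counts per 1000000 UMIs of the class in that library), and 17 hepatocyte genes to 1507, 1425, 709 and 523 CPM. The 12 Kupffer cell genes, none of them at 0, summed to 21775, 26166, 10388 and 12134 CPM. The part of these differences in the values below was not tested.

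In macrophage-like cells the members did not move as one. B2m and H2-M2 were higher on the NASH diet by every setting tried, whereas the classical heavy chain H2-K1 and the transporter subunit Tap2 were lower. UMIs were summed per library and tested with edgeR, and levels are given as CPM scaled by edgeR's TMM factors, which were 1.14 in each control library and 0.869 and 0.887 for NASH. Of 10293 genes tested, 23.1% were called higher and 21.2% lower at an adjusted p under 0.05 (44.3% in either direction). Of the 10 members, 4 were higher, 2 lower and 4 did not pass, which is near that background. Their median log2 fold change was 0.13, against -0.02 over all genes tested.

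The scaling changed the calls of several members and the direction of H2-D1. With plain library totals, an alternative chosen after seeing the data, the median of all genes moved from -0.02 to -0.40 and the calls over all genes from 2379 higher and 2185 lower to 1313 higher and 3992 lower. The members then gave 2 higher and 4 lower. The 50 most abundant genes took 30.1% (library 1) and 29.99% (library 2) of macrophage-like UMIs in control and 36.3% and 35.5% in NASH.

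Among the classical heavy chains, H2-K1 fell and H2-D1 did not pass. H2-K1 stood at 1939 and 2152 TMM-scaled CPM in control and at 1337 and 1548 in NASH. Both NASH libraries lay below both control libraries. Its log2 fold change was -0.50 (SE 0.145, Benjamini-Hochberg adjusted p = 0.0156 by edgeR's quasi-likelihood test) and -0.88 with library totals. Leaving out NASH library 1 (adjusted p = 0.202) or NASH library 2 (0.0708) ended the call, and adjusted p-values over all 18 alternatives ran from 0.000632 to 0.202. H2-D1 stood at 2657 and 2422 TMM-scaled CPM in control and at 2824 and 3295 in NASH. The groups did not overlap, but the log2 difference of 0.27 (SE 0.145) did not pass (edgeR adjusted p = 0.154) and was -0.11 with library totals. The 2 heavy chains thus lay on opposite sides of 0 under TMM scaling, and on the same side with library totals.

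H2-M2 had the largest fold change of the 10 members. It gave 2 and 11 UMIs in control and 730 and 712 in NASH, of 3368833, 2733926, 6346938 and 8187489 macrophage-like UMIs. These are 0.524 and 3.53 TMM-scaled CPM in control and 133 and 98.3 in NASH. Both NASH libraries were far above both control libraries. Here and wherever else H2-M2 was tested, its NASH counts took it past the filter on low counts. The fitted log2 fold change was 5.91 (SE 0.461, Benjamini-Hochberg adjusted p = 0.000208 by edgeR's quasi-likelihood test). The size of the fold rests on the few control UMIs: it was 5.01 without control library 1 and 7.72 without control library 2, which held 11 of the 13 control UMIs. It was 5.97 with no filter on low counts, 5.08 with a stricter cell filter and 4.74 with each cell thinned to 1000 UMIs. Naming each cell by its own markers left 0 control UMIs, and H2-M2 was then at least 26.0-fold higher, against a floor of 3 counts over both control libraries. All 18 alternatives kept the call, with adjusted p-values up to 0.00569.

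The other nonclassical heavy chains moved less than H2-M2, and with TMM factors only H2-T23 passed. H2-T23 (Qa-1) stood at 292 and 270 TMM-scaled CPM in control and at 341 and 479 in NASH. The groups did not overlap, though the NASH libraries lay far apart. It rose by 0.54 on the log2 scale (SE 0.170, edgeR adjusted p = 0.0241). With library totals the difference was 0.17 (adjusted p = 0.438), and the call was lost without control library 1 (0.0575), control library 2 (0.0962) or NASH library 2 (0.314), within a range of 0.000427 to 0.565 over 18 alternatives. H2-M3 overlapped between diets, at 97.2 and 94.4 TMM-scaled CPM in control and 87.4 and 103 in NASH (log2 -0.01, edgeR adjusted p = 0.976), and passed as lower with library totals (-0.38, edgeR adjusted p = 0.0428). H2-Q7 overlapped between diets too, at 53.4 and 52.4 against 36.7 and 60.5 TMM-scaled CPM (log2 -0.11, edgeR adjusted p = 0.705, and -0.49 with library totals, adjusted p = 0.108).

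B2m, the light chain that pairs with class I heavy chains, rose. It stood at 3859 and 3489 TMM-scaled CPM in control and at 6842 and 9101 in NASH. Both NASH libraries lay well above both control libraries. The log2 fold change was 1.12 (SE 0.165, Benjamini-Hochberg adjusted p = 0.000352 by edgeR's quasi-likelihood test), and 0.74 with library totals. It passed in all 18 alternatives, with log2 fold changes from 0.61 to 1.32. With only the clusters that carry the Kupffer markers, also chosen after seeing the data, it was 1.04.

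The transporter subunits had fold changes of opposite sign under both scalings, but the Tap1 call was lost with library totals. Tap1 stood at 57.1 and 48.5 TMM-scaled CPM in control and at 66.3 and 76.2 in NASH, without overlap. It rose by 0.43 on the log2 scale (SE 0.152, edgeR adjusted p = 0.0385). In the clusters with Kupffer markers alone it was 0.24 and did not pass (adjusted p = 0.258). The difference was 0.06 with library totals (adjusted p = 0.779), and the call was lost without control library 2 (0.129), NASH library 1 (0.0815) or NASH library 2 (0.265), in a range of 0.00826 to 0.895. Tap2 stood at 81.5 and 68.1 TMM-scaled CPM in control and at 48.7 and 53.4 in NASH, again without overlap. Its log2 fold change was -0.55 (SE 0.150, edgeR adjusted p = 0.0114) and -0.93 with library totals. That call was lost without control library 1 (0.0542), NASH library 1 (0.124) or NASH library 2 (0.0675), in a range of 0.000535 to 0.328. Tapbp stood at 193 and 214 TMM-scaled CPM in control and at 190 and 181 in NASH, a gap smaller than the spread within either diet. Its log2 difference was -0.13 (edgeR adjusted p = 0.440), and -0.51 with library totals (adjusted p = 0.00873).

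**Figure D1:**
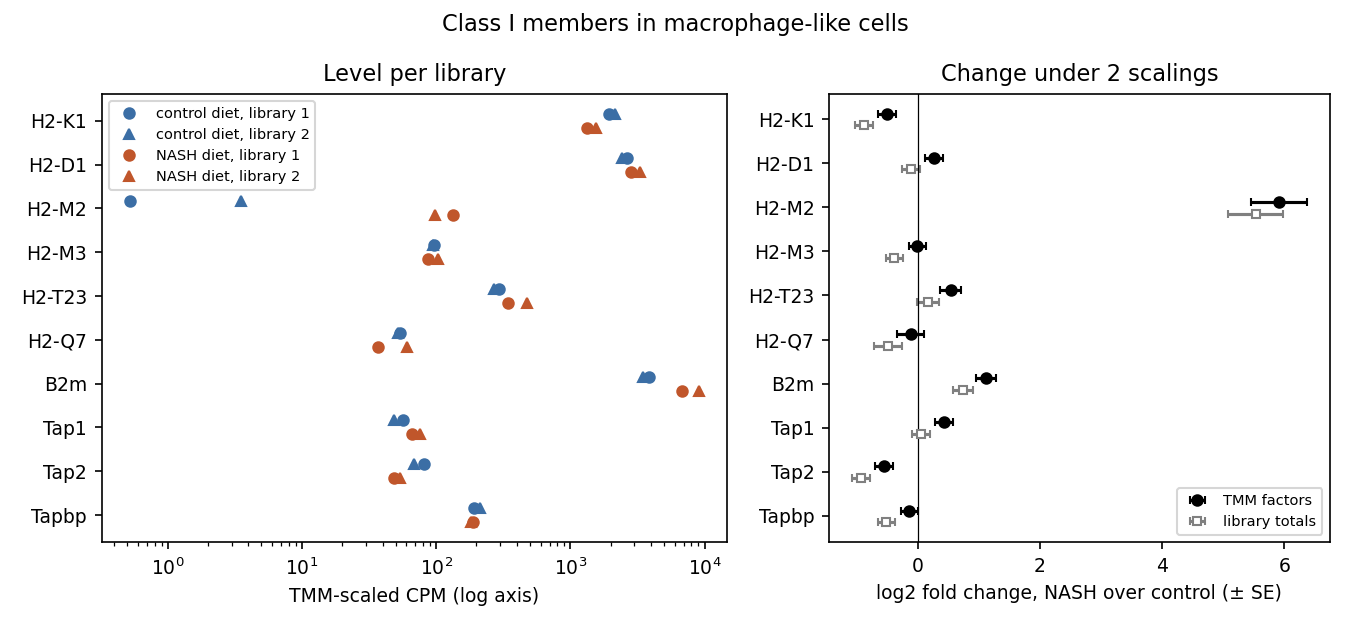
Left, TMM-scaled CPM (log axis) of each member in macrophage-like cells, 1 point per library. Right, log2 fold change of NASH over control with its standard error under TMM factors (filled circles) and plain library totals (open squares). H2-M2 (5.91) and B2m (1.12) lie to the right of 0 under both scalings and H2-K1 (-0.50) and Tap2 (-0.55) to the left, while H2-D1 moves from 0.27 to -0.11.

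H2-M2 was detected in a minority of the NASH macrophage-like cells. Since NASH cells were deeper (median 8323 and 7564.5 UMIs against 3114 and 2844), each cell was thinned to 1000 UMIs, leaving out shallower ones. At that depth 0 of 956 cells of control library 1 held an H2-M2 UMI, which allows a share of up to 0.314%, and 2 of 861 cells of control library 2 did (0.232%). In NASH library 1 it was 55 of 725 cells (7.59%, exact binomial 95% interval 5.77 to 9.76%), and in NASH library 2 it was 63 of 1024 (6.15%, 4.76 to 7.80%). The mean share was 0.116 ± 0.164% in control and 6.87 ± 1.01% in NASH (SD, n = 2 libraries each). With 2 libraries against 2, an exact permutation test cannot go below p = 0.3333. Unthinned, the shares were 0.206% and 0.575% in control and 22.5% and 16.8% in NASH. Intervals cover counting error only. Some cells held many copies: 48 and 50 NASH cells had at least 5 H2-M2 UMIs, with up to 30 and 49 in a single cell.

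Free RNA in droplets can give UMIs to cells that do not express a gene, so the share was set beside classes at 0. These classes were picked for being at 0, so they cannot decide how far free RNA reaches. Plasmacytoid dendritic-like cells held no H2-M2 UMI in any library, at median depths in NASH of 5465 and 5049 UMIs. NK- or ILC1-like cells held none either, in 33 and 39 NASH cells at medians of 3399 and 3611 UMIs. At 1000 UMIs per cell these counts of 0 allow shares of up to 6.12% and 5.88% for the NASH plasmacytoid cells, whose number limits the comparison with macrophage-like cells as a whole. Other classes were not at 0. Unthinned, 6 of 44 and 3 of 22 endothelial-like NASH cells held H2-M2 (13.6% in each library). Among T-like NASH cells it was 2 of 48 and 1 of 54.

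Within the macrophage-like cells, H2-M2 followed cluster. The cells of the Cx3cr1- and Ms4a7-led cluster, which also had high Olfml3 and Trem2, held 186 and 181 CPM in the NASH libraries (473 and 552 UMIs). This cluster did not show both Kupffer markers, Clec4f and Vsig4, in at least 80% of its cells. At 1000 UMIs per cell, 34 of 291 (11.7%) and 50 of 387 (12.9%) of them were positive. The Mmp12- and Gpnmb-led cluster held 104 and 69.1 CPM, with 7.29% and 4.17% of cells positive. The Folr2- and Apoc1-led cluster, which carries the Kupffer marker Clec4f among its leading genes, held 3.63 and 3.06 CPM (5 and 9 UMIs), with 0% and 0.289% of cells positive. The order was the same in both NASH libraries and the ranges did not overlap. Low H2-M2 was not common to all clusters with Kupffer markers. With those clusters alone, chosen after seeing the data, its log2 fold change of NASH over control was 6.15 (edgeR adjusted p = 0.0013). The 31 control 2 cells in the Cx3cr1-led cluster held 8 of that library's 11 H2-M2 UMIs (58.1 CPM), and the 8 control 1 cells there held 0. The large control clusters held 0.339 CPM (Fkbp5-led, control 1) and 1.33 CPM (Marco-led, control 2). Clusters are described here without a test, since they were made from the same cells.

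Among the C1q-low classes, dendritic-like cells also held H2-M2. In the Fscn1-, Ccr7- and Ccl22-led cluster, genes of migratory dendritic cells, it stood at 243 and 146 CPM in NASH (98 and 54 UMIs). At 1000 UMIs per cell the share was 21.2% in NASH library 1 (95% interval 11.1 to 34.7%) and 16.7% in NASH library 2 (6.97 to 31.4%). These intervals overlap those of the Cx3cr1-led macrophage-like cluster. The Xcr1-led dendritic cluster held 1 and 8 H2-M2 UMIs and the Cd209a-led one 5 and 2. In control only 4 cells fell into the Ccr7-led cluster, all from library 2, with 3 UMIs, too few for a comparison of diets within it.

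**Figure D2:**
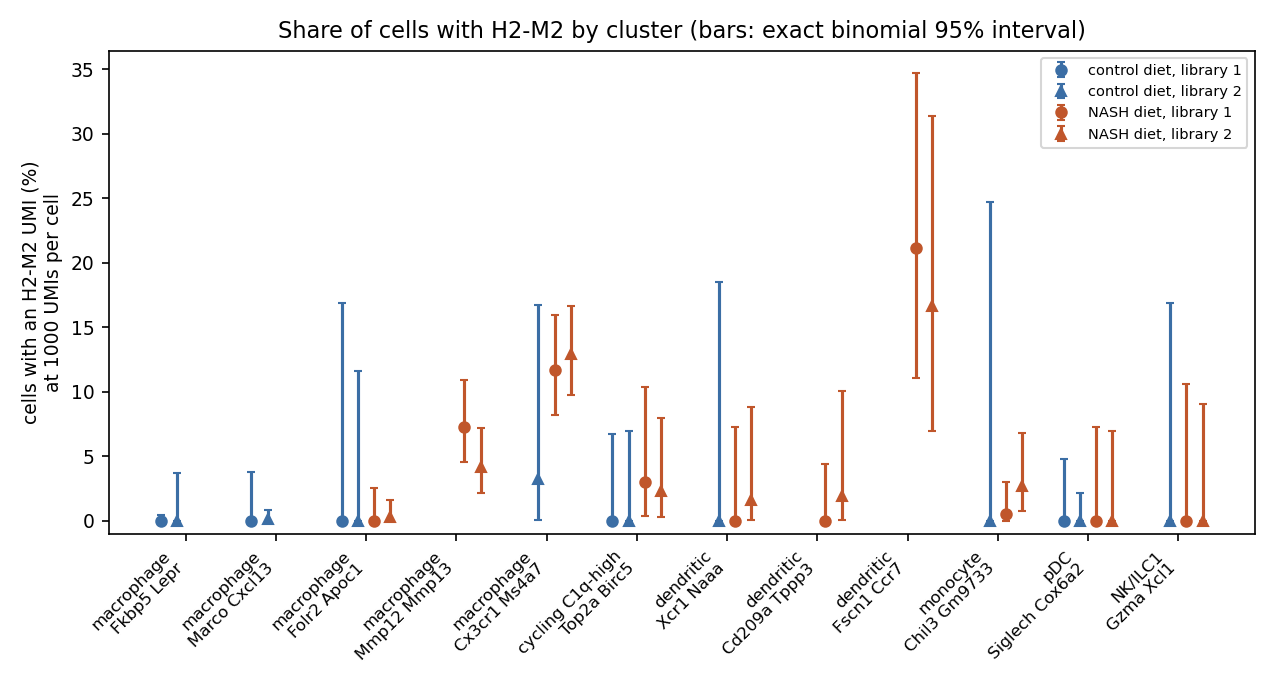
Percentage of cells with an H2-M2 UMI at 1000 UMIs per cell, by cluster (leading genes on the horizontal axis) and library. Points are libraries and bars the exact binomial 95% interval. The Ccr7-led dendritic-like cluster (21.2% and 16.7%) and the Cx3cr1-led macrophage-like cluster (11.7% and 12.9%) stand highest in NASH, and the Folr2-led cluster is at 0% and 0.289%.

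In some other classes H2-M2 came with macrophage transcripts. The complement genes C1qa, C1qb and C1qc, abundant in liver macrophages, had a median of 176 and 155 UMIs in the H2-M2-positive B-like cells of the NASH libraries, against 3 and 3 in all B-like cells there. Of those positive cells, 7 of 8 and 5 of 5 had C1q above 0.5% of their UMIs. Without such droplets, the H2-M2 count of B-like cells went from 50 and 22 UMIs to 4 and 0, that of neutrophil-like cells from 16 and 9 to 0 and 2, and that of plasma-like cells from 3 and 16 to 0 and 0. Endothelial-like cells kept 3 of 7 and 2 of 3 UMIs, and T-like cells kept 2 of 2 in each NASH library. Monocyte-like cells kept 22 of 22 UMIs in NASH library 1 and 3 of 48 in NASH library 2. The 22 came from 2 of 183 cells. Their median was 46 C1q UMIs, against 3 in all monocyte-like cells there, though neither was above the 0.5% limit. The Ccr7-led dendritic cells differed from these: their positive cells had a median of 4 and 3 C1q UMIs, against 2 and 3 in the whole cluster.

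**Figure D3:**
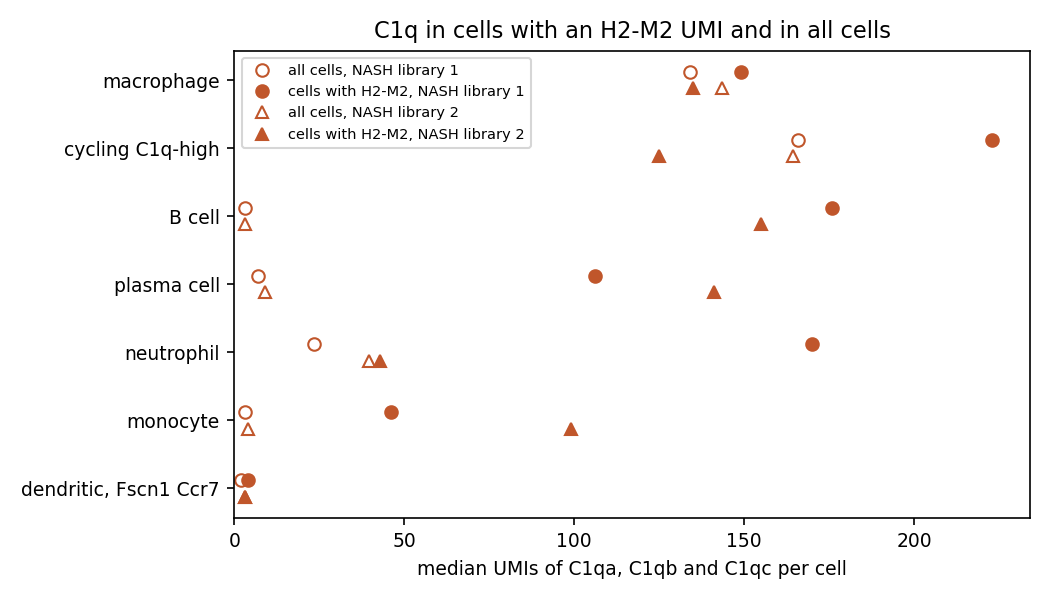
Median UMIs of C1qa, C1qb and C1qc per cell in the NASH libraries, for cells with an H2-M2 UMI (filled) and for all cells of the class or cluster (open), 1 point per library. In B-like cells the filled points lie at 176 and 155 and the open ones at 3 and 3, while in the Ccr7-led dendritic-like cluster all points lie at 4 or below.

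Positive and negative NASH macrophage-like cells were then compared at 1000 UMIs per cell for 12 chosen genes and for the members. The Kupffer genes had ratios below 1, positive over negative: the C-type lectin Clec4f stood at 564 CPM in positive and 1994 in negative cells of NASH library 1, and at 397 and 2886 in NASH library 2. Folr2, a folate receptor, had positive-to-negative ratios of 0.277 and 0.280. Timd4, a receptor for dying cells, gave 1 UMI in positive against 33 in negative cells in NASH library 1, and 0 against 69 in NASH library 2. Vsig4, a complement receptor, had ratios of 0.718 and 0.313. C1qa was close to level, with ratios of 1.05 and 0.867. The ratio was above 1 in both libraries for Gpnmb (1.91 and 2.71), the integrin Itgax (2.39 and 1.74), the tetraspanin Cd9 (2.00 and 1.26), the fractalkine receptor Cx3cr1 (1.44 and 2.20), osteopontin Spp1 (1.47 and 1.31) and, by little in NASH library 2, the lipid receptor Trem2 (1.29 and 1.07). Ccr2, the monocyte chemokine receptor, differed in direction (0.522 and 1.22) on 3 and 6 UMIs in positive cells. The other members were near 1 where counts were large: B2m had ratios of 1.20 and 0.993, H2-K1 0.959 and 1.20, and H2-D1 1.06 and 1.14. Tap1 had ratios of 1.87 and 1.63, on 6 and 8 UMIs in positive cells, and Tapbp 0.447 and 0.707, on 4 and 7. These cells were picked by an H2-M2 UMI and share their library, so the ratios are a description.

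Across the NASH libraries, the genes whose pattern was most like that of H2-M2 were Fabp5, Cd63, Ms4a7, Atp2b1, Spp1, Cxcl16, Anxa3, C3ar1, Foxn2 and Gpnmb. Pearson's r of log2(CPM + 1) ran from 0.825 for Fabp5, a fatty acid binding protein, to 0.742 for Gpnmb, over 33 sums of a cluster in a library with at least 20 cells. The 33 sums share 2 libraries and their free RNA, and 5904 genes with at least 50 CPM in a sum were ranked. None of the other members was near the top: B2m had r = 0.25 (rank 1143), Tap1 -0.05 (rank 2941) and Tap2 -0.32 (rank 4634).

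Between cell classes, the members had different orders of level, given here as plain CPM with the range of both libraries of a diet and no test. Classes were ordered by the mean of both libraries. H2-Q7 varied widely. In control it ran from 452 to 460 CPM in plasmacytoid dendritic-like cells and from 310 to 583 in T-like cells. It ran only from 59.6 to 60.6 in macrophage-like cells, the lowest class by mean. The range of cycling C1q-low cells overlapped theirs, with control library 2 below it and control library 1 above. In NASH it was highest in NK- or ILC1-like cells (687 to 1038) and T-like cells (487 to 727), whose ranges overlap. Macrophage-like (31.8 to 53.5) and neutrophil-like cells (26.9 to 52.9) were at the bottom and could not be separated.

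The order of classes by mean H2-K1 changed with diet. In control, macrophage-like cells (2197 to 2450 CPM) and cycling C1q-high cells (2246 to 2420) were at the top by mean, with overlapping ranges. The control libraries of T-like cells lay far apart, and their range overlapped those of both. Dendritic-like (820 to 891) and cycling C1q-low cells (666 to 1055), which also overlap, were at the bottom. In NASH, NK- or ILC1-like cells were at the top (2730 to 3186), above the next class without overlap, and macrophage-like cells stood at 1160 to 1370. H2-D1 was highest in plasmacytoid dendritic-like cells in control (3083 to 3257) and in NK- or ILC1-like cells in NASH (3610 to 4097), both without overlap with the next class. Control NK- or ILC1-like cells numbered only 6 and 20, and the class was not ranked in control.

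H2-T23 was highest in endothelial-like (757 to 769 CPM) and plasmacytoid dendritic-like cells (729 to 770) in control, which overlap. In NASH the plasmacytoid cells stayed at 664 to 726, above endothelial-like cells at 347 to 521. H2-M3 was highest in cycling C1q-high cells in control (125 to 146) and in plasmacytoid dendritic-like cells in NASH (104 to 130). B2m was highest in plasma-like cells in control (7202 to 10369.8). In NASH its mean was highest in NK- or ILC1-like (6660 to 7434) and macrophage-like cells (5933 to 8053), which overlap. Endothelial-like and cycling C1q-high cells overlapped both in NASH, and endothelial-like cells of NASH library 2 lay above either range. Cycling C1q-low cells were at the bottom in NASH (2995 to 3207). Tap1 was highest in dendritic-like cells on both diets (164 to 172 in control and 189 to 197 in NASH), without overlap with the next class. Tap2 was highest in NK- or ILC1-like cells in NASH (129 to 159), followed by dendritic-like cells (120 to 128), with macrophage-like cells at 42.2 to 47.3. Tapbp was highest in plasmacytoid dendritic-like cells on both diets (267 to 357 and 254 to 272), overlapping with the next class each time.

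The diet comparison was repeated in the other classes with at least 10 cells in every library. Cycling C1q-high cells are proliferating cells with macrophage transcripts. There 3 of 10 members rose and 1 fell, where 24.9% of 6240 genes were called in either direction. B2m stood at 3752 and 3428 TMM-scaled CPM in control and at 5999.6 and 8110 in NASH, without overlap (log2 0.97, edgeR adjusted p = 3.15e-05). H2-K1 went from 2120 and 2225 to 1197 and 1576, also without overlap (log2 -0.65, edgeR adjusted p = 0.00223). H2-D1 went from 2151 and 1889 to 2459 and 2882 (log2 0.40, edgeR adjusted p = 0.0310), but the difference was 0.08 with library totals (adjusted p = 0.661), and it did not pass without control library 2 (0.0911) or NASH library 2 (0.271). Without NASH library 1, H2-K1 did not pass there either (0.106). H2-M2 gave no UMI in 53 and 51 control cells and 39 and 55 UMIs in the NASH libraries, and passed the test (edgeR adjusted p = 4.36e-05). Only these NASH counts took it past the filter on low counts, so the p-value adds no support beyond them. Against a floor of 3 counts over both control libraries it was at least 6.83-fold higher.

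In B-like cells 1 of 9 members tested passed, where 14.7% of 2856 genes were called. B2m stood at 3154 and 3481 TMM-scaled CPM in control and at 4987 and 5252 in NASH, without overlap (log2 0.63, SE 0.190, edgeR adjusted p = 0.0183). B-like droplets carrying C1q numbered 1 and 3 in control and 15 and 25 in NASH. Without them the difference was 0.33 (adjusted p = 0.408). It did not pass without NASH library 1 (adjusted p = 0.291) or NASH library 2 (0.372) either. The call held in 13 of 18 alternatives, with adjusted p-values up to 0.788.

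With TMM factors no member passed in the other 5 classes by edgeR, nor by DESeq2 with its own size factors. DESeq2 gave an adjusted p to 8 of 10 members in dendritic-like and 9 of 9 in endothelial-like cells. It did so for 7 of 9 in plasmacytoid dendritic-like, 8 of 9 in cycling C1q-low and 5 of 8 in T-like cells. In dendritic-like cells 2.14% of 6086 genes were called. There 2 of 10 members had an unadjusted p under 0.05 by edgeR (B2m, log2 0.49, and H2-M2, log2 2.05), against 746 of the 6086 genes. In endothelial-like cells 5.67% of 3913 genes were called higher and 5.32% lower. Unadjusted, 3 of 9 members were under 0.05 (B2m 0.59, Tap1 0.91 and H2-T23 -0.73), against 971 of the 3913 genes. With library totals, H2-T23 passed as lower there (log2 -0.84, SE 0.238, edgeR adjusted p = 0.0415). In plasmacytoid dendritic-like, cycling C1q-low and T-like cells, 2.55% of 3530, 2.44% of 3357 and 0.518% of 1736 genes were called. None of 9, 9 and 8 members there was under 0.05 unadjusted, against 404, 465 and 157 of all genes. B2m in plasmacytoid dendritic-like cells was 6077 and 7021 TMM-scaled CPM in control and 5913 and 6839 in NASH, with overlapping groups.

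Summed over all kept cells, where cell makeup and level per cell cannot be told apart, B2m (log2 0.81), H2-M2 (5.68) and Tap1 (0.70) rose and H2-K1 (-0.42) fell by edgeR. Without NASH library 1 or NASH library 2, neither H2-K1 (adjusted p = 0.136 and 0.0615) nor Tap1 (0.0525 and 0.0661) passed. There 34.8% of 12124 genes were called.

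Whether the diet effect differed between macrophage-like cells and another class was tested as an interaction. Of 70 such tests, 7 passed. The background share of genes called was 8.81% against B-like, 5.62% against dendritic-like, 3.00% against endothelial-like, 8.58% against plasmacytoid dendritic-like, 1.07% against T-like, 0.384% against cycling C1q-high and 1.61% against cycling C1q-low cells. H2-K1 had 3 of them. Its diet effect in macrophage-like cells was lower by 0.60 on the log2 scale than in B-like cells (SE 0.190), by 0.94 than in dendritic-like cells (SE 0.236) and by 0.95 than in T-like cells (SE 0.255), with edgeR adjusted p-values of 0.0216, 0.00313 and 0.0267. In those classes alone its log2 fold change was -0.06, 0.19 and 0.05. The B2m effect was larger in macrophage-like than in plasmacytoid dendritic-like cells by 1.05 (SE 0.182, edgeR adjusted p = 8.75e-07), where its own change was -0.04. It was also larger than in endothelial-like cells, by 0.59 (SE 0.164, edgeR adjusted p = 0.0318). The H2-T23 effect was larger than in endothelial-like cells by 1.32 (SE 0.269, edgeR adjusted p = 0.00137) and than in plasmacytoid dendritic-like cells by 0.63 (SE 0.188, edgeR adjusted p = 0.0129). H2-M2 against dendritic-like cells, with a difference of 3.27, did not pass (edgeR adjusted p = 0.0505). Of these 7, only B2m against plasmacytoid dendritic-like cells passed under all 12 alternatives. The others passed in 5 (H2-K1 against B-like), 9 (dendritic-like) and 6 (T-like), in 6 for B2m against endothelial-like, and in 10 (endothelial-like) and 8 (plasmacytoid dendritic-like) for H2-T23. With library totals 9 differences passed. B2m against endothelial-like cells (0.26, adjusted p = 0.541) and H2-T23 against plasmacytoid dendritic-like cells (0.26, adjusted p = 0.433) were no longer among them. H2-K1 passed also against endothelial-like (-0.77, adjusted p = 0.0171) and plasmacytoid dendritic-like cells (-0.85, adjusted p = 8.3e-05), Tap2 against plasmacytoid dendritic-like cells (-1.22, adjusted p = 0.00755) and H2-Q7 against dendritic-like cells (-1.04, adjusted p = 0.0269). Leaving out 1 library was enough to end each of the calls under TMM factors other than B2m against plasmacytoid dendritic-like cells. H2-K1 did not pass against B-like cells without control library 1 (adjusted p = 0.139), control library 2 (0.349) or NASH library 1 (0.0882). Against dendritic-like cells it did not pass without NASH library 1 (0.636) or NASH library 2 (0.192), and against T-like cells without control library 1 (0.815), NASH library 1 (1.0) or NASH library 2 (0.7). For B2m against endothelial-like cells, leaving out any of the 4 libraries gave adjusted p-values of 0.11 to 0.326. H2-T23 did not pass without control library 2 against endothelial-like cells (0.0662), nor without control library 2 (0.162) or NASH library 2 (0.484) against plasmacytoid dendritic-like cells.

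The rest of the pathway, with 5 class II genes for comparison, was read from 6 lists in macrophage-like cells. Of these lists 42 genes were tested. In all 19 rose and 5 fell, against 23.1% and 21.2% of all genes. With library totals 13 were higher and 11 lower. The 5 class II genes, not part of the class I pathway, are among those higher in both counts. The proteasome genes moved together. All 6 genes of the immunoproteasome and its activator rose, with a median log2 fold change of 0.99. The catalytic subunit Psmb8 went from 198 and 156 to 476 and 505 TMM-scaled CPM, without overlap (log2 1.47, SE 0.154). The activator subunits Psme2 (1.20) and Psme1 (0.91) and the assembly factor Pomp (1.07) rose as well, with edgeR adjusted p-values of 5.23e-05 to 0.00222 over the 6 genes. With library totals 5 of them still passed, all higher, and Psmb10 did not. The constitutive subunits that they replace rose too: Psmb6 by 1.82, Psmb7 by 1.30 and Psmb5 by 1.29, all 3 also with library totals. All 5 class II genes rose under both scalings, led by H2-Eb1 (2.64) and H2-Ab1 (2.63).

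The other lists were mixed. Of 9 other class I heavy chains or class I-like genes tested, H2-T22 rose (0.59), while Cd1d1, which presents lipids to NKT cells (-1.24), and Fcgrt, the neonatal Fc receptor (-0.92), fell. With library totals H2-T22 was 0.22 and did not pass. Of 8 peptide loading and trimming genes, the translocon subunit Sec61b rose (0.47, and 0.10 with library totals) and the chaperone calnexin, Canx, fell (-0.46). Among 11 genes that act on class I transcription, Irf8 (0.74) and Rfxap (0.55) rose and Rfx5 (-1.12) and the NF-kB subunit Rela (-0.64) fell. Neither Irf8 (0.36) nor Rfxap (0.18) passed with library totals. Nlrc5, the class I transactivator, did not pass (0.15, edgeR adjusted p = 0.656). No UMI of H2-M1, H2-M9 or H2-M11, other genes of the H2-M group, was found in macrophage-like cells of any library.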

How the data were processed

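Droplet-based 10x single-cell RNA-seq was deposited for 4 libraries of sorted CD45+ CD146- mouse liver cells, 2 per diet. The deposited matrices hold whole-number UMI counts per gene and barcode, not normalized. Per the submitters' processing notes, Cell Ranger, Seurat and the mm10 build were used. Versions, aligner settings, counting strand and any filter before deposit: none is stated in the labels, that is, not given in the sources used here. The members and the gene lists were chosen with earlier results of these data known.

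A barcode was kept if it showed 200 or more genes and no more than 10% of its UMIs were mitochondrial. Putative doublets, the cells scoring highest in Scrublet, were removed at 0.8% per 1000 cells (14, 17, 20 and 28 cells). For clustering, log values after scaling to 10000 UMIs per cell, 2000 variable genes without any class I gene, 30 principal components, 15 neighbours and Leiden resolution 1.0 gave 26 clusters. A cluster took the name of the marker list with most of its top 10 genes by fold, if there were 2 or more and 3 markers were detected in 25% of cells. Clusters with all 3 C1q genes in 90% of cells were macrophage-like or, with 2 cycling genes on top, cycling C1q-high, and stayed unnamed if 2 top genes marked another class.

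UMIs were summed per library and class. Classes reaching 10 cells in all 4 libraries were tested with edgeR's quasi-likelihood test (filterByExpr, TMM factors, diet as the only term, Benjamini-Hochberg adjustment over all genes tested, threshold 0.05). Interactions were fitted on macrophage-like and 1 other class, with library as a term, as a difference of diet effects. Macrophage-like counts totalled 3368833, 2733926, 6346938 and 8187489. The SE given with edgeR values is the size of the log2 fold change divided by the square root of the F statistic. It is therefore not a measure of precision apart from the test. For 8 of the 10 members this SE was 0.135 to 0.170 whatever their level. On simulated counts for 10116 genes, the macrophage test recovered 49% of 100 genes changed 2-fold and 96% of 100 changed 4-fold, with 7 false calls. The simulation gave every gene the same dispersion and changed few genes, equally up and down. Its rates may not hold for the real counts, where 44.3% of genes were called. Alternatives were other scaling, DESeq2, other filters on genes and cells, more doublets removed, other clusterings, thinning, a replicate block and leaving out each library. Plain library totals, leaving out droplets with C1q above 0.5% of UMIs in C1q-low classes, and Kupffer-marker clusters alone were added after seeing the data.

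The text names all 10 members, of each pathway list up to 4 genes with the largest change each way past the threshold, the 10 genes most like H2-M2 by Pearson's r, and 12 genes for the comparison of H2-M2-positive cells. Psmb10, Nlrc5 and the H2-M genes at 0 were named after their values were seen. A pathway gene that the rule would name is not reported here. Of 27998 gene identifiers, 27645 (98.7%) matched GENCODE vM21. Promoter sequences came from RefSeq (GRCm38.p6), with entries for 9 of 10 members. Tools were Python 3.11.15 with scanpy 1.11.5 and scipy 1.17.1, and R 4.3.3 with edgeR 4.0.16, limma 3.58.1 and DESeq2 1.42.0.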

Additional observations from a re-analysis of the deposited data

Results flagged for a closer look

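The diet effect on 3 members differed between macrophage-like cells and another class by a test of the difference itself. For H2-K1 the difference was -0.60 on the log2 scale against B-like cells, -0.94 against dendritic-like cells and -0.95 against T-like cells. For B2m it was 0.59 against endothelial-like (0.26 with library totals, where it did not pass) and 1.05 against plasmacytoid dendritic-like cells. For H2-T23 it was 1.32 against endothelial-like and 0.63 against plasmacytoid dendritic-like cells (0.26 with library totals, where it did not pass).

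H2-M2 also appeared in cells that belong to no named class. An unnamed cluster with C1q in most cells and T cell genes (Cd3d, Nkg7 and Lck) at its head held 94 H2-M2 UMIs in NASH library 1 and 127 in NASH library 2. They came from 24 of 83 and 17 of 72 cells. The 12 and 10 control cells of the cluster held 0.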

How the results depend on the processing

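For the 4 members called higher in macrophage-like cells, library totals, a stricter cell filter, cell-by-cell naming and thinning each left 2, and leaving out 1 library left 2 to 3. For the 2 called lower, library totals gave 4, DESeq2 1, the stricter filter 0 and cell-by-cell naming 0, and leaving out 1 library 0 to 2. In the other classes, the 4 higher calls became 9 with no filter on low counts, 2 with the stricter filter, 8 at resolution 0.5 and 11 by cell-by-cell naming (4 to 9 without 1 library). The 1 lower call became 3 with library totals, 2 with no filter, 0 with the stricter filter and 3 by cell-by-cell naming (0 to 4 without 1 library). The 19 genes of the pathway lists called higher, 5 of them class II, became 13 with library totals. The 5 called lower became 11 with library totals, 3 by DESeq2, and 2 each by the stricter filter and cell-by-cell naming (2 to 7 without 1 library). The 7 interactions became 3 with thinning and 9 with library totals, of which 5 were among the 7 (3 to 7 without 1 library).

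The control share of H2-M2-positive macrophage-like cells, 0.116%, was 0.391% without thinning and 0% to 0.232% without 1 library. The NASH share, 6.87%, was 3.93% at 500 UMIs, 11.9% at 2000 and 19.6% unthinned (6.15% to 7.59% without 1 library). Directions reversed for 3 members that had not passed. H2-D1 was -0.11 with library totals and -0.0899 by cell-by-cell naming. H2-M3 was 0.0041 by DESeq2, 0.0508 with no filter, 0.25 with the stricter filter, 4.6e-05 at resolution 2.0 and from -0.12 to 0.12 without 1 library. H2-Q7 was 0.39 with thinning and ran from -0.52 to 0.20 without 1 library. Of 385 single values under an alternative, 299 kept direction and call, 74 lost the call, 2 gained it and 10 reversed. Causes were not tested, beyond the fewer libraries or UMIs left. Where 1 library was left in an arm, it was assumed to vary like the other arm.

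Over all genes, macrophage-like calls (2379 higher, 2185 lower) became 1735 and 1314 by DESeq2, 1313 and 1213 with the stricter filter, 565 and 575 by cell-by-cell naming, 1400 and 1147 with thinning, 1617 and 1206 without NASH library 1, and 1549 and 1091 without NASH library 2. Same-numbered libraries did not deviate together (r = -0.034 over 10293 genes), so the numbers were not taken to pair them. With the replicate number as a block, the macrophage-like calls stayed at 4 higher and 2 lower, the lower calls in other classes went from 1 to 2, and B2m in B-like cells no longer passed (adjusted p = 0.065).

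Depth limits H2-M2 in control macrophage-like cells, with 2 and 11 UMIs (SE 0.461), and shares of 0 in small classes allow several percent.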
